A study of Mus musculus with 12 samples.

Results

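Mouse 3T3-L1 preadipocytes given an adipogenic cocktail together with quercetin were compared with untreated cells of the same line, to ask which groups of genes of the induction program still differed from the untreated level when the flavonoid was present. The comparison used the 3 libraries labelled as treated with dexamethasone, 3-isobutyl-1-methylxanthine (IBMX), insulin and quercetin and the 3 libraries labelled untreated, 6 of the 12 libraries in the study, chosen by their labels. The 3 libraries given the cocktail alone (DMI, for dexamethasone, methylxanthine and insulin) are given alongside, and luteolin libraries entered only the shared estimate of spread. All libraries were labelled as wild type and taken at day 6, and the cocktail held 0.5 mM IBMX, 1 uM dexamethasone and 10 ug/ml insulin. The labels give the same treatment text for every sample, untreated ones included, and neither the dose of quercetin nor the time at which it was added. 3T3-L1 is a single clonal line of mouse fibroblasts already committed to the fat lineage, so the libraries of a group are not different animals, and where nothing says that they came from separate cultures the p-values measure only the spread between these libraries. In bulk RNA, fewer differentiated cells in a dish and less RNA of a gene per cell cannot be told apart.

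Quercetin is a plant flavonol. In 3T3-L1 cells the glucocorticoid dexamethasone acts through the glucocorticoid receptor, IBMX raises cyclic AMP by blocking phosphodiesterases, and insulin acts through its own and the IGF1 receptor. The early factors C/EBPβ and C/EBPδ are known to switch on PPARγ and C/EBPα, which sustain each other and turn on the genes of lipid storage and of the secreted proteins of fat, while preadipocyte genes such as Dlk1 are turned down.

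The total count of a library was 16503872 to 17262585 in the untreated group, 16833837 to 19436796 with quercetin and 15186820 to 16313509 with DMI alone. Of the quercetin libraries, the third stood apart. The standard deviation of its log2 levels around the other 2 was 0.596, against 0.367 and 0.355 for those and 0.125 to 0.149 in the untreated group, and in the DMI group the third library had 0.516. Against the other 2, its median log2 level ran from -0.312 in the shortest of 5 equal groups of genes to 0.382 in the longest, and from 0.543 in the group with the lowest GC content to -0.416 in that with the highest. The first quercetin library ran the other way over the GC groups, from -0.372 to 0.269. The second quercetin library ran from 0.303 to -0.274 over the same length groups, while in the untreated and DMI groups the same medians ran from -0.0782 to 0.105. Values without the third quercetin library are given for many of the calls and counts that depend on it, but not for all. With offsets for length and GC content, chosen after seeing the third quercetin library, some calls against untreated in what follows did not pass. Among these were the rises of Ndufa4, Uqcrfs1, Cycs, Cox7b, Mmp3 and Cd14. With the offsets 3 subunits encoded in mitochondrial DNA rose, against 8 without them, and 7 collagen and matrix genes fell, against 9.

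**Figure D1:**
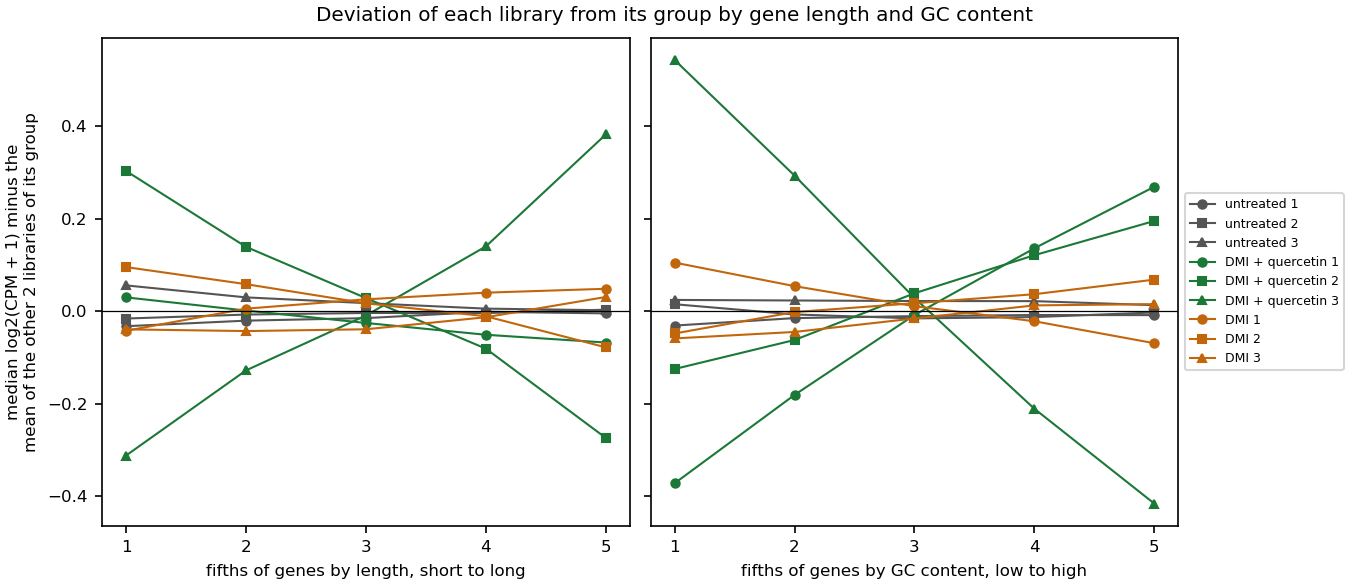
Median log2(CPM + 1) of each of 9 libraries minus the mean of the other 2 libraries of its group (y axis), in 5 equal groups of the 9479 genes with a mean of at least 10 CPM, ordered by gene length (left) and GC content (right). Grey marks untreated, green DMI with quercetin and orange DMI, with circle, square and triangle for replicates 1, 2 and 3; the third quercetin library runs from -0.312 to 0.382 with length and from 0.543 to -0.416 with GC content.

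With quercetin in the cocktail, 1404 of 14855 genes tested (9.45%) differed from untreated cells at an adjusted p under 0.05 (edgeR's quasi-likelihood test with Benjamini-Hochberg adjustment), 712 higher (4.79%) and 692 lower (4.66%), and 777 of them differed at least 2-fold. The median log2 fold change over all genes was 0.02. With DMI alone the same fit called 4024 genes (27.1%), 2187 higher (14.7%) and 1837 lower (12.4%), a comparison that shares the 3 untreated libraries. Between quercetin with DMI and DMI alone, 150 genes passed (1.01%), 24 higher with quercetin (0.162%) and 126 lower (0.848%). Without the third quercetin library 3286 of 15227 genes (21.6%) differed from untreated cells, 2120 higher and 1166 lower, and of these 1263 were among the 1404 called with all libraries, all in the same direction. The count was 560 without the second quercetin library, 2214 without the third DMI library, and 458, 490 and 553 without untreated libraries 1, 2 and 3. The 150 calls against DMI alone depend on which libraries are in the fit: 0 genes passed by edgeR without DMI library 1 or 2, 1 without quercetin library 2, 4 without quercetin library 3, 575 without quercetin library 1, 2646 without DMI library 3 and 13 or 14 without an untreated library.

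The labelled cell state was checked first with Adipoq, Fabp4 and Cidec, markers of mature fat cells. Adipoq, which encodes the hormone adiponectin (chr16:23146536-23158028, plus strand, GRCm38), stood at 0.373, 0.179 and 2.05 CPM (counts scaled to the TMM-adjusted library size) in untreated libraries 1 to 3 and at 609.3, 641.4 and 130.9 CPM with quercetin. All 3 quercetin libraries lay above all untreated ones, with the third lowest of its group and the third untreated library highest of its own. The rise was 525-fold (edgeR, log2 fold change 9.04 with SE 1.01, adjusted p = 0.000428, n = 3 and 3), and with DMI alone the 3 libraries held 1553, 1880 and 472.1 CPM. Fabp4, the fatty acid carrier of fat cells (chr3:10204088-10208576, minus strand), was at 0.933, 2.80 and 7.25 CPM in untreated cells and 1197, 1274 and 204.7 CPM with quercetin, a 243-fold rise (7.92, SE 0.98, adjusted p = 0.000693 by edgeR). Cidec, a protein that fuses lipid droplets (chr6:113424634-113435760, minus strand), was at 0.0622, 0.0597 and 3.08 CPM and at 492.7, 414.1 and 106.0 CPM, a 313-fold rise (8.29, SE 1.10, adjusted p = 0.000989 by edgeR). Untreated library 3 was the highest of its group in each of the 3 markers, and quercetin library 3 the lowest of its group.

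**Figure D2:**
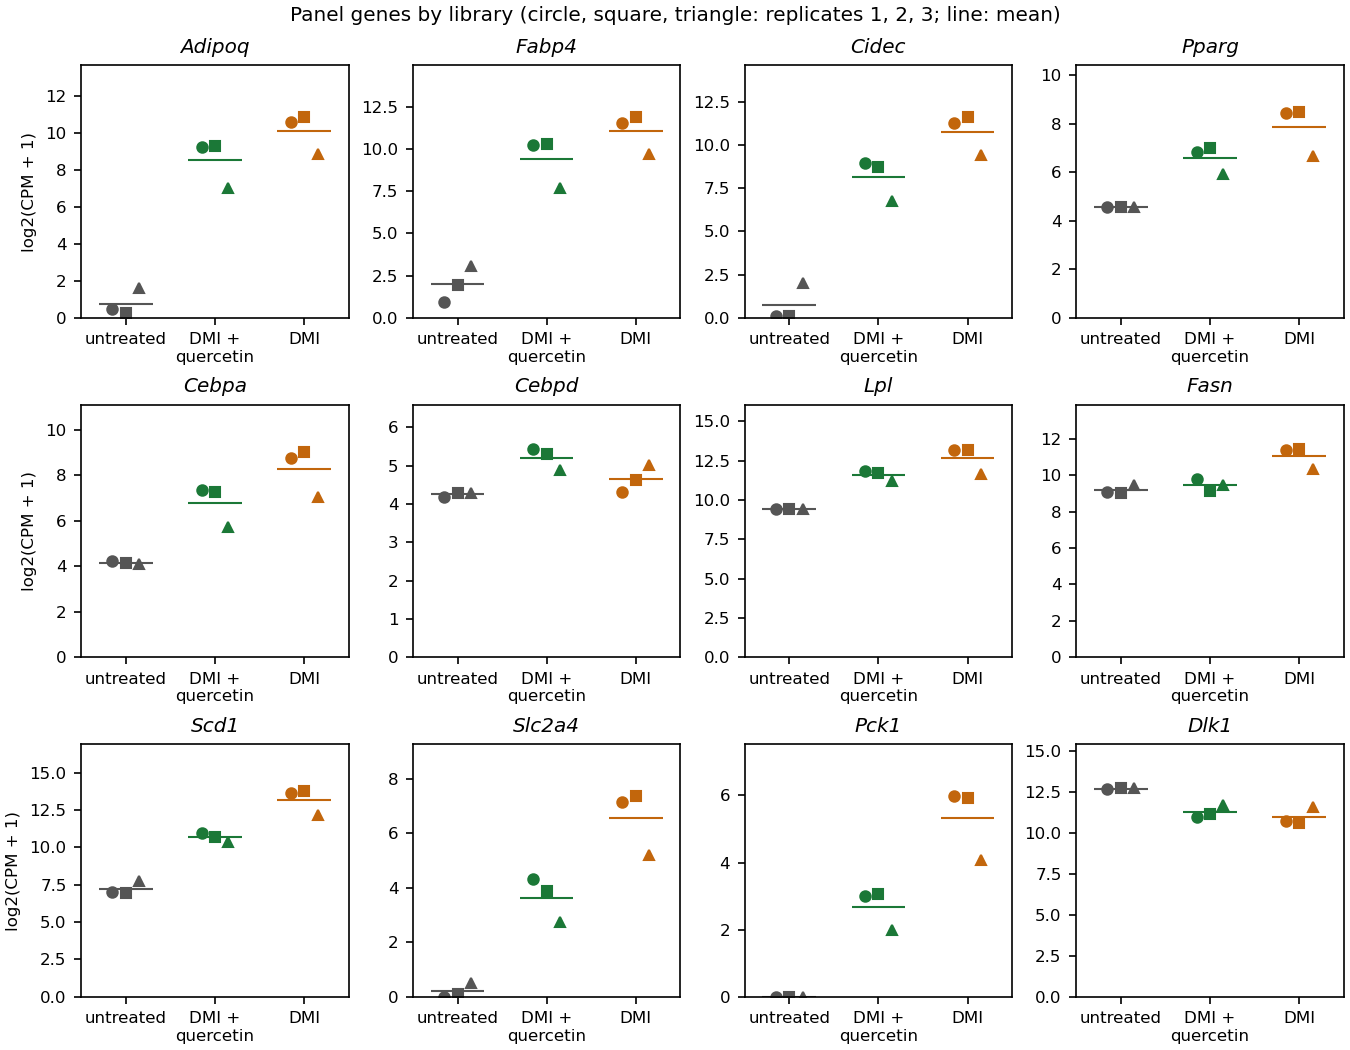
Levels of 12 genes as log2(CPM + 1) (y axis) in each library of untreated cells, DMI with quercetin and DMI alone (x axis); circles, squares and triangles are replicates 1, 2 and 3 and lines are group means. Adipoq, Fabp4 and Cidec lie above untreated in all 3 quercetin libraries, Fasn does not separate from untreated (536.9 to 696.4 CPM against 571.5 to 904.6), and Dlk1 lies below untreated in all 3.

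The core adipogenic transcription factors rose with quercetin present. Pparg, the nuclear receptor that directs fat cell differentiation (chr6:115360951-115490399, plus strand), was at 22.81, 22.85 and 22.96 CPM in untreated cells and at 113.8, 126.3 and 60.07 CPM with quercetin. The groups did not overlap, and the rise was 4.38-fold (2.13, SE 0.45, adjusted p = 0.0126). Cebpa, its partner, was at 17.84, 16.7 and 16.31 CPM and at 162.6, 153.7 and 52.22 CPM, a 7.25-fold rise (2.86, SE 0.52, adjusted p = 0.00601). Nr1h3, the oxysterol receptor LXRα, rose 6.48-fold (2.70, SE 0.56, adjusted p = 0.0119). For the early factors the picture was mixed. Cebpd was at 17.22, 18.31 and 18.43 CPM untreated and 41.97, 38.47 and 28.72 CPM with quercetin, all above the untreated range (2.02-fold, log2 change 1.02, SE 0.25, adjusted p = 0.0248). In the libraries given DMI alone, which held 18.88, 23.7 and 31.28 CPM, Cebpd did not pass against untreated (0.45, adjusted p = 0.195), and the difference between both induced groups, tested directly, did not pass either (0.56, adjusted p = 0.208). Cebpb was at 170.2, 183.0 and 73.45 CPM with quercetin against 102.8, 107.8 and 112.2 CPM, so that the third quercetin library lay below the untreated range, and it did not pass (0.40, adjusted p = 0.370; 0.78 and 0.00393 without that library).

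These and later list counts stand beside the shares over all genes: 4.79% rose and 4.66% fell with quercetin, 14.7% and 12.4% with DMI alone. With DMI alone 12 of the 21 adipogenic transcription factors listed, all tested, rose and 3 fell (median log2 fold change 1.13). With quercetin 7 rose and 1 fell, with a median of 0.62. The number of rises was 3 without quercetin library 2 or untreated library 1 or 2, and 13 without quercetin library 3. Klf15, a factor that cooperates with glucocorticoid signalling in fat, went from 0, 0.119 and 0.121 CPM to 7.31, 5.31 and 2.70 CPM (log2 fold change 5.86, adjusted p = 0.00726). All 3 of its quercetin libraries lay above the untreated ones and below the DMI libraries (53.04, 64.88 and 12.25 CPM), and it was lower than with DMI alone (-3.08, adjusted p = 0.0484). Klf5, an early factor downstream of C/EBPβ and C/EBPδ, was at 2.11, 2.03 and 2.54 CPM untreated, 9.66, 8.90 and 8.35 CPM with quercetin and 8.05, 7.95 and 6.16 CPM with DMI, a log2 rise of 2.01 over untreated (adjusted p = 0.000324) and a difference of 0.28 from DMI (adjusted p = 0.421). Srebf1, the sterol response factor that drives lipogenic genes with insulin, was at 97.25, 94.53 and 66.33 CPM against 55.39, 56.55 and 56.56 CPM. Its groups did not overlap, yet it did not pass (0.62, SE 0.24, adjusted p = 0.134; 0.84 and 0.0326 without quercetin library 3).

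Among 14 listed repressors of adipogenesis 8 fell and 1 rose with DMI alone, where 12.4% of all genes fell. With quercetin 4 fell and 1 rose (median log2 fold change -0.24), where 4.66% of all genes fell. Dlk1, the preadipocyte surface protein that holds differentiation back (chr12:109452823-109463336, plus strand), fell 2.65-fold, from 6574, 6904 and 6848 CPM to 1996, 2352 and 3321 CPM (-1.41, SE 0.31, adjusted p = 0.0153 by edgeR). Its DMI libraries held 1739, 1562 and 3120 CPM, and the difference between both induced groups was 0.26 on the log2 scale with a 95% interval of -0.40 to 0.91, which lies within 2-fold. Gata3, a factor that restrains preadipocyte conversion, fell from 6.40, 6.74 and 6.59 CPM to 2.78, 2.83 and 2.45 CPM (-1.29, adjusted p = 0.0218). Ddit3, the stress factor CHOP that blocks C/EBP proteins, fell by 0.88 on the log2 scale (adjusted p = 0.0142). The rise was that of Foxo1, a factor held out of the nucleus by insulin (0.84, adjusted p = 0.0454).

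The mature fat cell program was reached in part. Of 18 identity markers 16 passed the low-count filter, and since most of them could pass it only through the induced groups, the count among them is a description. Members of other lists that were near 0 untreated could likewise pass it only through the induced groups. The counts of rises in those lists are a description too. With quercetin 15 of the 16 rose over untreated, with a median log2 fold change of 7.82, and the 15 had no overlap between quercetin and untreated libraries (over all genes 14.8% lay wholly above and 16.4% wholly below). With DMI alone all 16 rose, with a median of 10.3. Against DMI the median was -2.17, 6 members were lower at the threshold (Retn, Lep, Mrap, Car3, Slc2a4 and Slc36a2), where 0.848% of all genes were, and for no member did the 95% interval lie within 2-fold, which it did for 65.3% of all genes. None of the members passed against DMI by limma-voom, 7 were lower by DESeq2, and none passed without quercetin library 3, where 4 genes (0.0263%) were called in all, while 16 were lower without library 3 of all 3 induced groups (33.4% of genes called). The median level over untreated, as log2(CPM + 1), was 4.51, 4.62 and 2.36 in quercetin libraries 1 to 3 and 7.05, 7.29 and 4.81 in the DMI libraries, so the third library was the lowest in each induced group. The count of 15 was 11 without quercetin library 2.

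Among the 10 largest rises over untreated by the naming rule were Pck1, Cfd, Adipoq, Mrap, Orm1, Retn, Plin1, Cidec and Cd36. Cfd, the serine protease adipsin, went from 0.124, 0.0597 and 0.906 CPM to 392, 414.5 and 44.37 CPM (log2 fold change 9.58, adjusted p = 0.000676 by edgeR), with 1009, 1439 and 276 CPM under DMI. Retn, which encodes the hormone resistin, went from 0, 0 and 0.242 CPM to 42.95, 33.51 and 16.02 CPM (8.45, adjusted p = 0.000811). In all 3 DMI libraries it was above the quercetin range (313.5, 388.7 and 64.95 CPM), and the 2 induced groups differed 8.28-fold (-3.05, adjusted p = 0.0484). Plin1, the droplet coat protein perilipin, rose 323-fold, from 0.0622, 0.179 and 1.81 CPM to 323.3, 292.2 and 58.23 CPM (8.34, adjusted p = 0.000693). Cd36, a fatty acid uptake receptor, rose 310-fold, from 0.249, 0.656 and 3.14 CPM to 476.1, 510 and 278.8 CPM (8.28, SE 0.80, adjusted p = 0.00025). Mrap, an accessory protein of the corticotropin receptor, had 2 counts over the untreated group, so that the ratio of quercetin to untreated was 589 with a 95% counting interval of 163 to 4871. Orm1, an acute phase protein with close copies that may share reads, was likewise near 0 untreated, with a ratio of 438 (121 to 3619). These intervals cover counting error only.

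Lep, the gene of the satiety hormone leptin, was near 0 with quercetin. It had no count in the untreated group, 0, 0.101 and 0.0614 CPM with quercetin (3 counts in all) and 2.52, 3.91 and 0.677 CPM with DMI alone. At that depth no difference from untreated was detectable with quercetin (adjusted p = 0.386), while DMI alone was at least 38.1-fold over the floor of 3 counts in the untreated group. The DMI level was 41.9 times that with quercetin (95% counting interval 14.0 to 206, adjusted p = 0.0420 by edgeR).

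Slc2a4 and Pck1, genes of glucose uptake and glycerol supply, rose from near 0. Slc2a4, the insulin-responsive glucose transporter GLUT4 (chr11:69942539-69948188, minus strand), was at 0, 0.0597 and 0.423 CPM untreated, 18.83, 13.85 and 5.65 CPM with quercetin and 141.8, 163.6 and 35.95 CPM with DMI. The 3 groups did not overlap. It rose 75.7-fold over untreated (log2 fold change 6.24, SE 0.95, adjusted p = 0.00224) and was 8.87-fold lower than with DMI (-3.15, adjusted p = 0.0444 by edgeR). Pck1, the enzyme that supplies glycerol for fat from pyruvate, had no untreated count, 6.93, 7.33 and 2.95 CPM with quercetin and 61.72, 59.6 and 15.76 CPM with DMI. With the untreated group set at 3 counts it was at least 96.9-fold higher with quercetin (adjusted p = 0.00472) and at least 742-fold higher with DMI, and the induced groups differed 7.91-fold (-2.98, adjusted p = 0.0484). Among 17 genes of insulin signalling and glucose uptake 5 rose and 2 fell, against 11 and 2 with DMI alone. The rises numbered 7 without quercetin library 3 or DMI library 3 and 1, 3 and 3 without untreated libraries 1, 2 and 3. The 2 that fell, Igfbp4 and Igfbp5, encode carriers of insulin-like growth factors. Igfbp5 went from 120, 113.5 and 87.43 CPM to 14.3, 11.98 and 20.8 CPM, 6.83-fold lower (-2.77, SE 0.28, adjusted p = 0.000264), and to 16.04, 13.02 and 24.01 CPM with DMI alone.

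Genes of fatty acid synthesis and desaturation moved both ways, around a median near the untreated level. Of 14 such genes 3 rose and 1 fell with quercetin (median log2 fold change -0.06), where 4.79% and 4.66% of all genes did. Without quercetin library 3, 4 rose and 4 fell. With DMI alone 9 rose and 1 fell (median 0.84). Fasn, the fatty acid synthase (chr11:120805846-120824547, minus strand), was at 536.9, 525.2 and 696.4 CPM untreated, 904.6, 571.5 and 702.7 CPM with quercetin and 2654, 2785 and 1293 CPM with DMI. Quercetin and untreated libraries overlapped, and the difference was 0.31 on the log2 scale (95% interval -0.30 to 0.92, adjusted p = 0.532), while Fasn was 3.09-fold lower than with DMI (-1.63, adjusted p = 0.0420). Acaca, which makes malonyl-CoA for the synthase, did not differ detectably from untreated (-0.19, adjusted p = 0.619) and was 2.03-fold lower than with DMI (-1.02, adjusted p = 0.0484). Acly, the enzyme that makes cytosolic acetyl-CoA, was at -0.22 (adjusted p = 0.333). Scd1, the main desaturase of fat cells (chr19:44394451-44407709, minus strand), did rise, from 125.1, 119.8 and 211.7 CPM to 2001, 1684 and 1290 CPM. That was 10.9-fold over untreated (3.45, SE 0.42, adjusted p = 0.000676) and 6.25-fold below DMI (-2.64, adjusted p = 0.0273), whose libraries held 12870, 13630 and 4599 CPM. Thrsp, a lipogenic regulator, also rose (6.92, adjusted p = 0.000324), as did Acss2, which activates acetate (1.40, adjusted p = 0.0101), and the desaturase gene Fads1 fell by 0.52 (adjusted p = 0.0390).

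Genes of triglyceride assembly, uptake and breakdown were further from untreated. Of 13 genes of triglyceride assembly and glycerol supply 8 rose (median 3.14), against 13 with DMI alone (median 4.42). Pck1, Mogat1 and Aqp7, near 0 untreated, could pass the low-count filter only through the induced groups, so these counts are a description. Gpd1, which makes glycerol 3-phosphate, went from 0.684, 0.954 and 4.96 CPM to 767.8, 611.5 and 137.8 CPM (7.84, adjusted p = 0.000576). Dgat2, which adds the last acyl chain, went from 2.05, 2.09 and 3.75 CPM to 125.4, 121.5 and 36.69 CPM, 35.9-fold (5.17, SE 0.67, adjusted p = 0.000881 by edgeR). In both genes the third quercetin library was the lowest of its group and still above every untreated one. Of 12 uptake and carrier genes tested 6 rose (median 1.69), where 4.79% of all genes did. With DMI alone 8 rose (median 1.87), where 14.7% of all genes did. Lpl, the lipase that frees fatty acids from lipoproteins, was already at 678.5, 701.6 and 674.6 CPM untreated and rose 4.58-fold to 3616, 3422 and 2376 CPM (2.20, SE 0.37, adjusted p = 0.00415). Acsl1, which activates fatty acids, rose 44.9-fold (5.49, adjusted p = 0.000576). Of 9 tested droplet coat and fusion genes 4 rose (median 0.66), against 6 with DMI alone, beside the same shares over all genes.

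Of 11 tested lipolysis genes 8 rose (median 2.83), against 10 with DMI alone (median 4.99). Over all genes 4.79% and 14.7% rose. Against DMI 4 members were lower at the threshold (0.848% of all genes), 8 by DESeq2, and none by limma-voom or without quercetin library 3. Adrb3, Aqp7, G0s2 and Mgll, low or near 0 untreated, could pass the low-count filter only through the induced groups, so these counts are a description. Without untreated library 1 the count of rises was 4, without 2 or 3 it was 5, and without quercetin library 2 it was 5. Pnpla2, the first lipase of triglyceride breakdown, went from 38.42, 40.56 and 41.39 CPM to 519.8, 507.8 and 114.7 CPM, a 9.49-fold rise (3.25, adjusted p = 0.00824). Lipe, hormone-sensitive lipase, went from 10.26, 9.78 and 11.42 CPM to 274.3, 267 and 48.97 CPM, 18.8-fold (4.23, adjusted p = 0.00345). Neither differed from DMI at the threshold (adjusted p = 0.130 and 0.158), with intervals of -3.02 to -0.46 and -2.96 to -0.30 that reach well beyond 2-fold lower. Mgll, the monoglyceride lipase, rose only to 4.26, 3.08 and 2.70 CPM from 0.435, 0.418 and 0.544 CPM (2.83, adjusted p = 0.0227). With DMI it held 56.31, 66.59 and 14.16 CPM, 13.6-fold more (-3.77, adjusted p = 0.0246).

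Receptors of fat cells rose in part. Of 12 hormone and metabolite receptors tested 5 rose over untreated, against 8 with DMI alone. Over all genes 4.79% and 14.7% rose. Against DMI 4 of the receptors were lower (0.848% of all genes), 6 by DESeq2, and none by limma-voom or without quercetin library 3. Members near 0 untreated, such as Klb, Adrb3 and Ffar4, could pass the low-count filter only through the induced groups, so these counts are a description. The rises numbered 3 without quercetin library 2 or untreated library 1 or 2. Klb, a coreceptor for FGF21, went from 0, 0.119 and 0.363 CPM to 3.66, 3.94 and 1.96 CPM (4.25, adjusted p = 0.0124) and stood at 72.67, 67.76 and 15.21 CPM with DMI, 16.1-fold higher (-4.01, adjusted p = 0.0246 by edgeR). Adrb3, the β3 adrenergic receptor, had no untreated count and was at 4.48, 3.99 and 1.04 CPM with quercetin (adjusted p = 0.0225). Ffar4, a receptor for long-chain fatty acids, did not pass over untreated (0.218, 0.0506 and 0.307 CPM against no count, adjusted p = 0.232) and was 50.9-fold below its DMI level of 12.65, 13.63 and 3.20 CPM (-5.67, adjusted p = 0.0318). Of 13 adipokines and secreted factors tested 5 rose, and 7 did so without quercetin library 3.

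**Figure D3:**
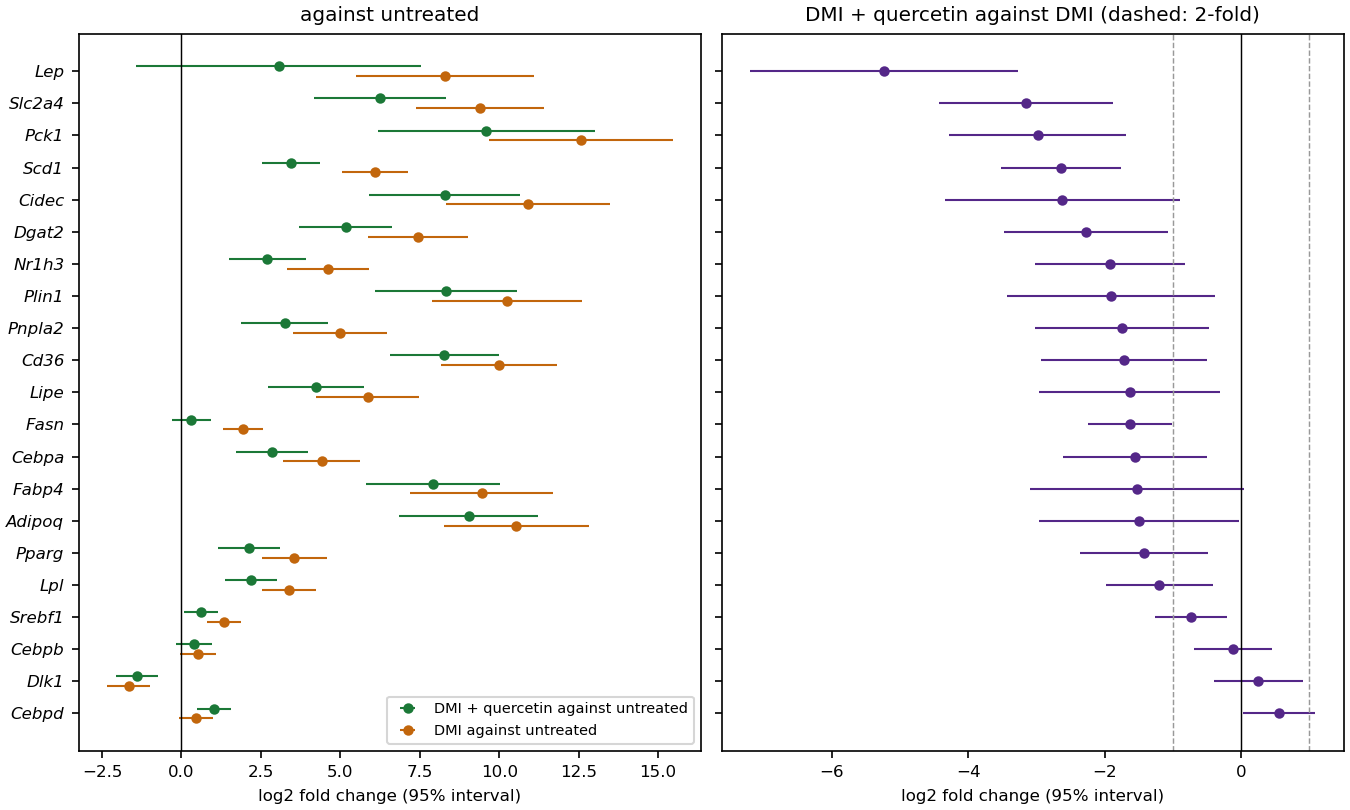
Log2 fold changes of the 21 panel genes with 95% intervals (x axis): left, DMI with quercetin and DMI alone, each against untreated; right, DMI with quercetin against DMI alone, with dashed lines at 2-fold either way. Scd1, Fasn, Slc2a4, Pck1 and Lep lie below 0 on the right with adjusted p under 0.05, and the interval of Dlk1 (-0.40 to 0.91) lies between the dashed lines.

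Most listed genes known to respond to glucocorticoids rose in both induced groups. Of 16 such genes 11 rose with quercetin (median 0.94) and 10 with DMI alone (median 0.93). In 12 of the 16 each quercetin library lay above each untreated one, as in 14.8% of all genes. Between the induced groups no member passed by edgeR or limma-voom, with 4 higher and 7 lower at an unadjusted p under 0.05. By DESeq2 3 were higher and 3 lower. The interval lay within 2-fold for 5 of the 16, against 65.3% of all genes. The 11 became 4, 5 and 6 without untreated libraries 1, 2 and 3 and 6 without quercetin library 2. Fkbp5, a chaperone partner of the glucocorticoid receptor and a standard target of it, was at 46.06, 41.04 and 49.79 CPM untreated, 157.6, 138.9 and 105.8 CPM with quercetin and 80.79, 89.47 and 98.01 CPM with DMI. Each quercetin library lay above each DMI library, though the difference did not pass (0.58, adjusted p = 0.0928), and the rise over untreated was 1.56 on the log2 scale (SE 0.17, adjusted p = 0.000428 by edgeR). Mt1, a metal-binding metallothionein, was at 196.3, 201.3 and 210.2 CPM untreated and 436.7, 457.3 and 367.3 CPM with quercetin (1.05, adjusted p = 0.0131), with 171.9, 219.8 and 333.1 CPM under DMI (0.25, adjusted p = 0.429). Sgk1, a kinase induced by glucocorticoids, rose to 107, 123.3 and 142.3 CPM from 74.66, 75.16 and 79.34 CPM (0.70, adjusted p = 0.0366), with 70.28, 66.32 and 103.9 CPM under DMI. Zbtb16, a zinc finger factor, rose from 0.249, 0.418 and 0.0604 CPM to 33.89, 15.92 and 8.65 CPM (6.29, adjusted p = 0.000437). Per1, a clock gene with glucocorticoid response elements, rose by 0.74 (adjusted p = 0.0153), and the receptor gene Nr3c1 stood at 0.01 (adjusted p = 0.977). Several members, such as Lcn2 and Angptl4, also respond to PPARγ or to inflammation, so the list is not a pure readout of the receptor. Of 12 tested cyclic AMP response genes 3 rose, against 6 rises and 1 fall with DMI alone. The shares of rises over all genes were 4.79% with quercetin and 14.7% with DMI alone.

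Interferon response genes had the lowest median of the lists with at least 4 tested members. Many cells keep such genes at a low tonic level through autocrine type I interferon. Signalling from its receptor acts on the interferon-stimulated response element, whose core is spelled here as GAAANNGAA. The sequences of 4 members are shown because the element lies close to their start sites. Each is the 250 bases before the RefSeq start of the gene (GRCm38.p6), read on the gene's strand, with every match to the core, on either strand, in capitals; where matches overlap they run together. They come from chr5:120907526-120907775 (Oas1a, minus strand), chr5:120887614-120887863 (Oas1g, minus strand), chr19:34640639-34640888 (Ifit1, plus strand) and chr4:156200819-156201068 (Isg15, minus strand).
Oas1a: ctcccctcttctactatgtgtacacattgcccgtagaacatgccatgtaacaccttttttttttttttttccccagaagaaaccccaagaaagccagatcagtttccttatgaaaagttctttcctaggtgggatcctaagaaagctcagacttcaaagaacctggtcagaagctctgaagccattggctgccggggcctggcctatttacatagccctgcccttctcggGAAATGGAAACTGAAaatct
Oas1g: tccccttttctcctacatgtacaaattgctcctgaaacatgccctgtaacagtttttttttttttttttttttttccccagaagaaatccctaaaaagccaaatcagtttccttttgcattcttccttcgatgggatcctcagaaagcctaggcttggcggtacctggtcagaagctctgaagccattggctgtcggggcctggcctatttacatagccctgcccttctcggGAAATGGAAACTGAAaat
Ifit1: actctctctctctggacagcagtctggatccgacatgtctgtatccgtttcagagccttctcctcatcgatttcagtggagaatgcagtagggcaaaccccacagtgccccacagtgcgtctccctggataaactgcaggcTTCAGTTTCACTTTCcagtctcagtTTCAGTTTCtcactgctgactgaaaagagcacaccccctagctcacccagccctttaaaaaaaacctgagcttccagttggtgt
Isg15: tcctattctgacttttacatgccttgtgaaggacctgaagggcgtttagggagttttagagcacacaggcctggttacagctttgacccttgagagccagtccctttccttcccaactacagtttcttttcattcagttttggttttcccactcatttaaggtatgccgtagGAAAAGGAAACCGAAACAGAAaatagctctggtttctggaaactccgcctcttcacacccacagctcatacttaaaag
Counted back from the start site, the first base of each match lies at -20 and -14 in Oas1a, -18 and -12 in Oas1g, -109, -103 and -84 in Ifit1 and -78, -72 and -66 in Isg15. A RefSeq window of 250 bases before to 50 after the start was at hand for 19 of the 26 listed genes, and 14 of the 19 (73.7%) held the core on either strand, against 729 of 10328 windows of genes tested (7.06%). The glucocorticoid core ACANNNTGT was in 3 of 12 windows of the glucocorticoid list (25.0%) and 4.03% of all windows. The nuclear receptor core AGGTCA and the C/EBP site TTGCNNAA were each in 3 of those 12 as well, and in 11.9% and 8.14% of all. Of 9 windows of identity markers AGGTCA was in 1 (11.1%) and the C/EBP site in 2 (22.2%). A match describes letters in a window and shows no binding.

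Of 25 interferon genes tested 22 fell with quercetin in the cocktail, and the other 3 also lay below 0, with a median over the list of -1.71. In all 25 genes each quercetin library lay below each untreated library, as it did in 16.4% of all genes. With DMI alone 22 fell (median -1.44). The summed level was 3186, 3116 and 2866 CPM untreated, 1026, 1072 and 939.7 CPM with quercetin and 898.2, 625.2 and 1740 CPM with DMI. The third quercetin library, lowest in fat cell genes, was also the lowest of its group here, in the summed level and in the median. Its median log2 difference from untreated was -1.64, against -1.62 and -1.51. In the DMI group the third library was the highest (-0.73 against -1.62 and -2.18). The count of 22 was 12 without quercetin library 2, 13, 13 and 15 without untreated libraries 1, 2 and 3, and 21 without quercetin library 3. Between quercetin with DMI and DMI alone no member passed by edgeR, DESeq2 or limma-voom and 1 did at an unadjusted p under 0.05, and for 16 of the 25 the interval lay within 2-fold (65.3% over all genes). With the third library of each induced group left out, 11 members were higher and 1 lower with quercetin than with DMI, in a fit that called 5049 genes (33.4%).

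Oas1a, an activator of RNase L in antiviral defence, fell from 23.44, 19.68 and 18.19 CPM to 1.97, 1.37 and 1.47 CPM (-3.67, SE 0.41, adjusted p = 0.000428), with 1.32, 0.754 and 3.69 CPM under DMI. Its neighbour Oas1g went from 6.28, 8.41 and 5.80 CPM to 0.437, 0.152 and 0.368 CPM (-4.41, adjusted p = 0.00187). Both belong to a cluster of near-identical copies, so reads may be split between them. Oas2, a related enzyme, went from 98.9, 88.22 and 67.68 CPM to 9.22, 6.77 and 3.99 CPM (-3.67, adjusted p = 0.000342). Ifit1, which binds foreign RNA caps, went from 190, 198.6 and 172 CPM to 57.2, 63.04 and 70.08 CPM (-1.56, adjusted p = 0.0118), and Isg15, a ubiquitin-like modifier, from 149.8, 143.2 and 136 CPM to 43.06, 45.7 and 10.19 CPM (-2.11, adjusted p = 0.0249). In these genes no quercetin library reached the untreated range. Usp18, which removes ISG15 from proteins, fell 4.03-fold (-2.01, SE 0.23, adjusted p = 0.000453). Cd74, the invariant chain of MHC class II, is not in the list and was among the 10 largest falls (18.4, 17 and 16.38 CPM to 1.42, 2.83 and 1.78 CPM; -3.09, adjusted p = 0.00105).

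**Figure D4:**
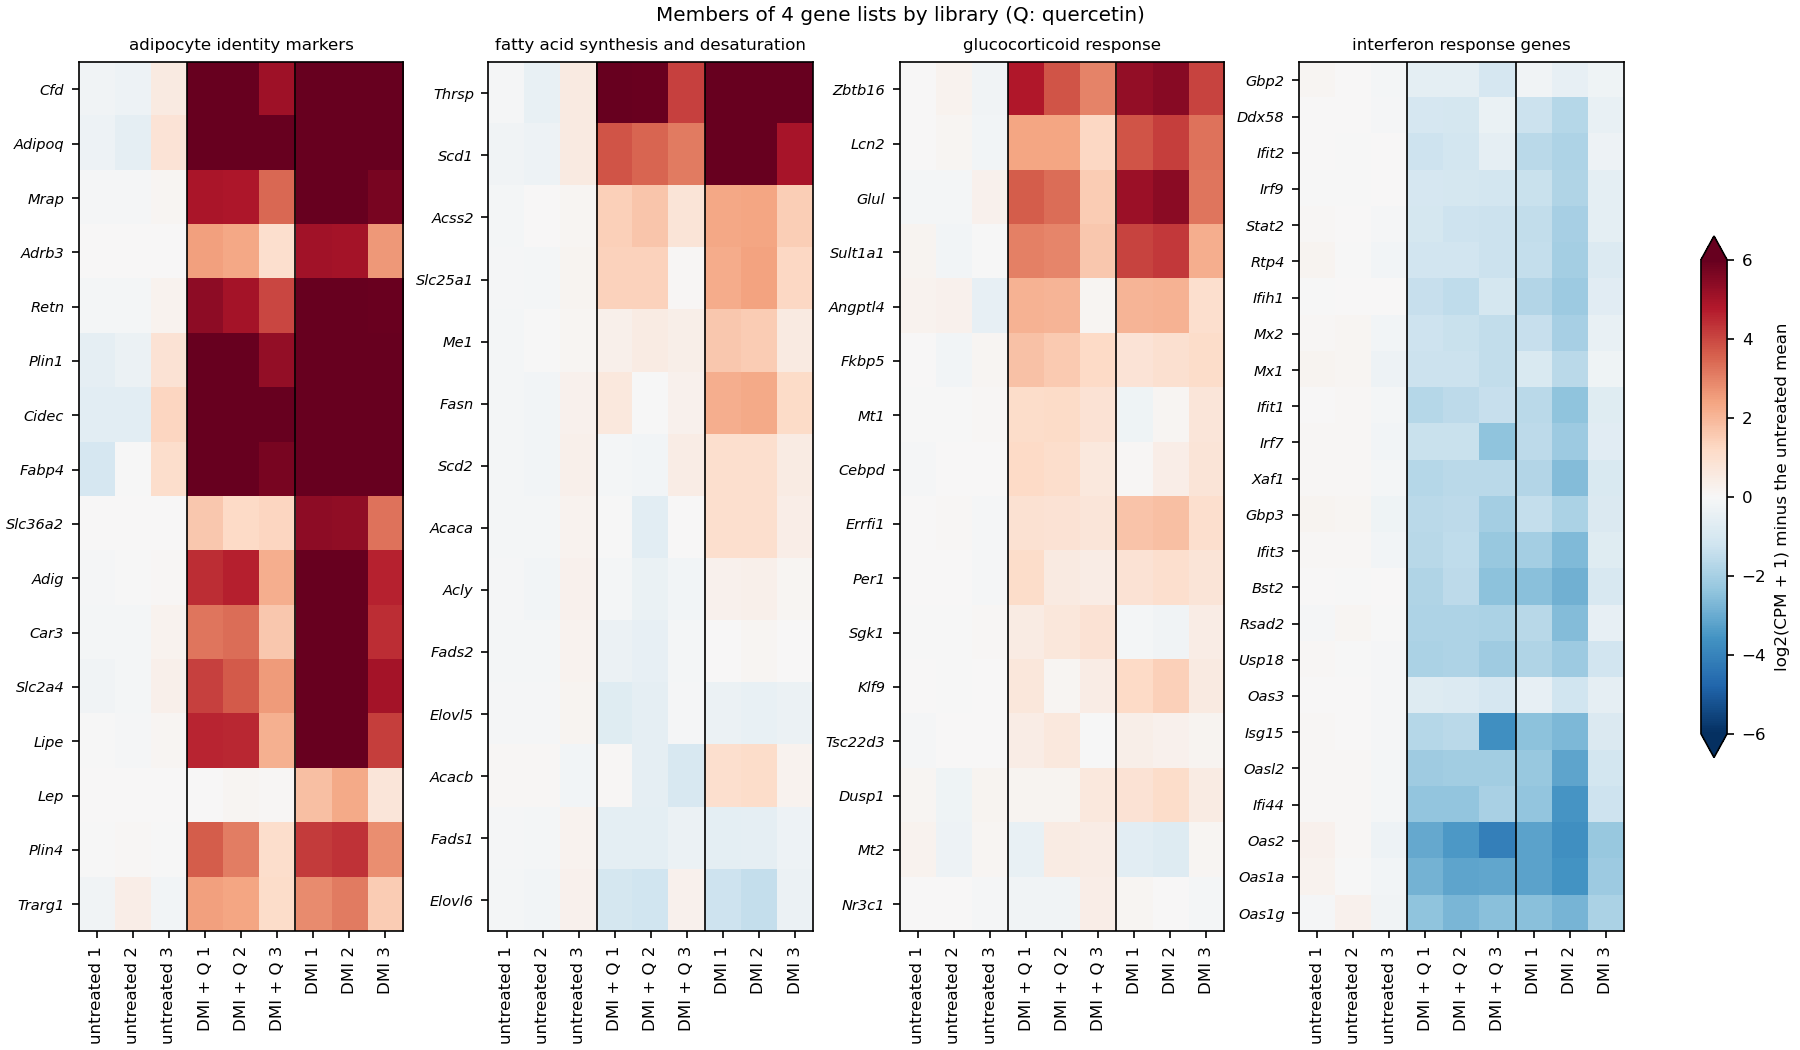
Log2(CPM + 1) of tested members minus their untreated mean (colour, scale limited to 6 either way) in the 9 libraries (columns) for identity markers, fatty acid synthesis, glucocorticoid response and interferon response genes (rows). Interferon genes are below untreated in all 3 quercetin libraries (list medians -1.62, -1.51 and -1.64) and identity markers above it (4.51, 4.62 and 2.36).

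Matrix and progenitor genes fell in part. Of 28 collagens and matrix assembly genes 9 fell (median -0.35), where 4.66% of all genes did. With DMI alone 14 fell and 3 rose, where 12.4% and 14.7% of all genes did. With quercetin 3 to 5 fell without an untreated library or without quercetin library 1 or 2. Col1a1, the α1 chain of type I collagen, fell 2.33-fold, from 16630, 16240 and 15590 CPM to 6527, 6196 and 8048 CPM (-1.22, SE 0.21, adjusted p = 0.00484), with 6724, 6530 and 10450 CPM under DMI. Col14a1, a fibril-associated collagen, fell 18.5-fold, from 8.58, 10.4 and 8.52 CPM to 0.218, 0.303 and 0.982 CPM (-4.21, adjusted p = 0.000904). Fn1, fibronectin, fell 2.88-fold (-1.53, adjusted p = 0.0349). Among 13 tested progenitor markers Dlk1, Pdgfrb, Thy1, Ly6a and Sfrp2 fell, and Cd55 and Mmp3 rose. Without any 1 untreated library 1 fell. Pdgfrb, a growth factor receptor of mesenchymal cells, went from 625.4, 601.1 and 615.7 CPM to 348.3, 302.5 and 361.5 CPM (-0.86, adjusted p = 0.0152). All 3 of its quercetin libraries were below untreated, and the DMI libraries held 226.4, 213.9 and 353.8 CPM.

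Some genes of the integrated stress response fell. Of 19 ATF4 and endoplasmic reticulum stress genes 7 fell and 1 rose (median -0.36), against 7 and 2 with DMI alone. Over all genes 4.66% fell and 4.79% rose with quercetin. Between the induced groups 18 of the 19 had an interval within 2-fold, as did 65.3% of all genes. Without any 1 untreated library 4 fell. Trib3, a pseudokinase induced by ATF4, went from 116.5, 129.2 and 143.1 CPM to 47.26, 52.17 and 42.95 CPM (-1.45, adjusted p = 0.00484). Chac1, a glutathione-degrading enzyme, went from 54.02, 49.45 and 53.6 CPM to 18.72, 21.48 and 13.44 CPM (-1.55, adjusted p = 0.00244). Asns, asparagine synthetase, fell by 0.49 (adjusted p = 0.0449). Among 29 cell cycle genes Mcm2, Mcm5 and Plk1 fell (median -0.28), against 9 falls and 3 rises with DMI alone. Without quercetin library 3, 7 of the 29 fell and 1 rose with quercetin.

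Counts of mitochondrial genes depended strongly on single libraries. Over all genes 4.79% rose with quercetin and 14.7% with DMI alone. Of 28 nuclear-encoded respiratory chain subunits 6 rose (Ndufa1, Ndufa4, Uqcrfs1, Cycs, Cox6c and Cox7b), with a median of 0.78, while all 28 lay above 0 and all 28 rose with DMI alone (median 1.38). Without the third quercetin library 25 rose, without the third DMI library 19, and without quercetin library 1 or 2 or any 1 untreated library 0 to 3 did. With all libraries 14 rose by DESeq2. Cycs, cytochrome c, was at 35.19, 38.18 and 38.25 CPM untreated and 153, 170.3 and 38.9 CPM with quercetin (1.70, adjusted p = 0.0438), so the third quercetin library lay at the edge of the untreated range. With offsets for gene length and GC content, chosen after seeing the third library, 2 subunits rose. Of 12 tested subunits encoded in mitochondrial DNA 8 rose with quercetin and 8 with DMI (3 with the same offsets, 1 or 2 without quercetin library 2 or an untreated library). The mitochondrial chromosome took 3.29, 3.92 and 4.65% of the counts with quercetin, 1.85, 1.91 and 1.89% untreated and 4.72, 4.28 and 2.87% with DMI. Of 21 genes of the citric acid cycle and pyruvate entry 5 rose (16 without quercetin library 3 or DMI library 3, 1 without quercetin library 1 or 2 or any untreated library), against 19 with DMI alone. Pcx, pyruvate carboxylase, went from 48.12, 51.84 and 54.5 CPM to 1002, 776.3 and 194.8 CPM (3.67, adjusted p = 0.00328). Of 17 tested fatty acid oxidation genes 8 rose, 15 without quercetin library 3, 13 without DMI library 3 and 0 or 1 without quercetin library 1 or 2 or any 1 untreated library, against 16 with DMI alone.

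**Figure D5:**
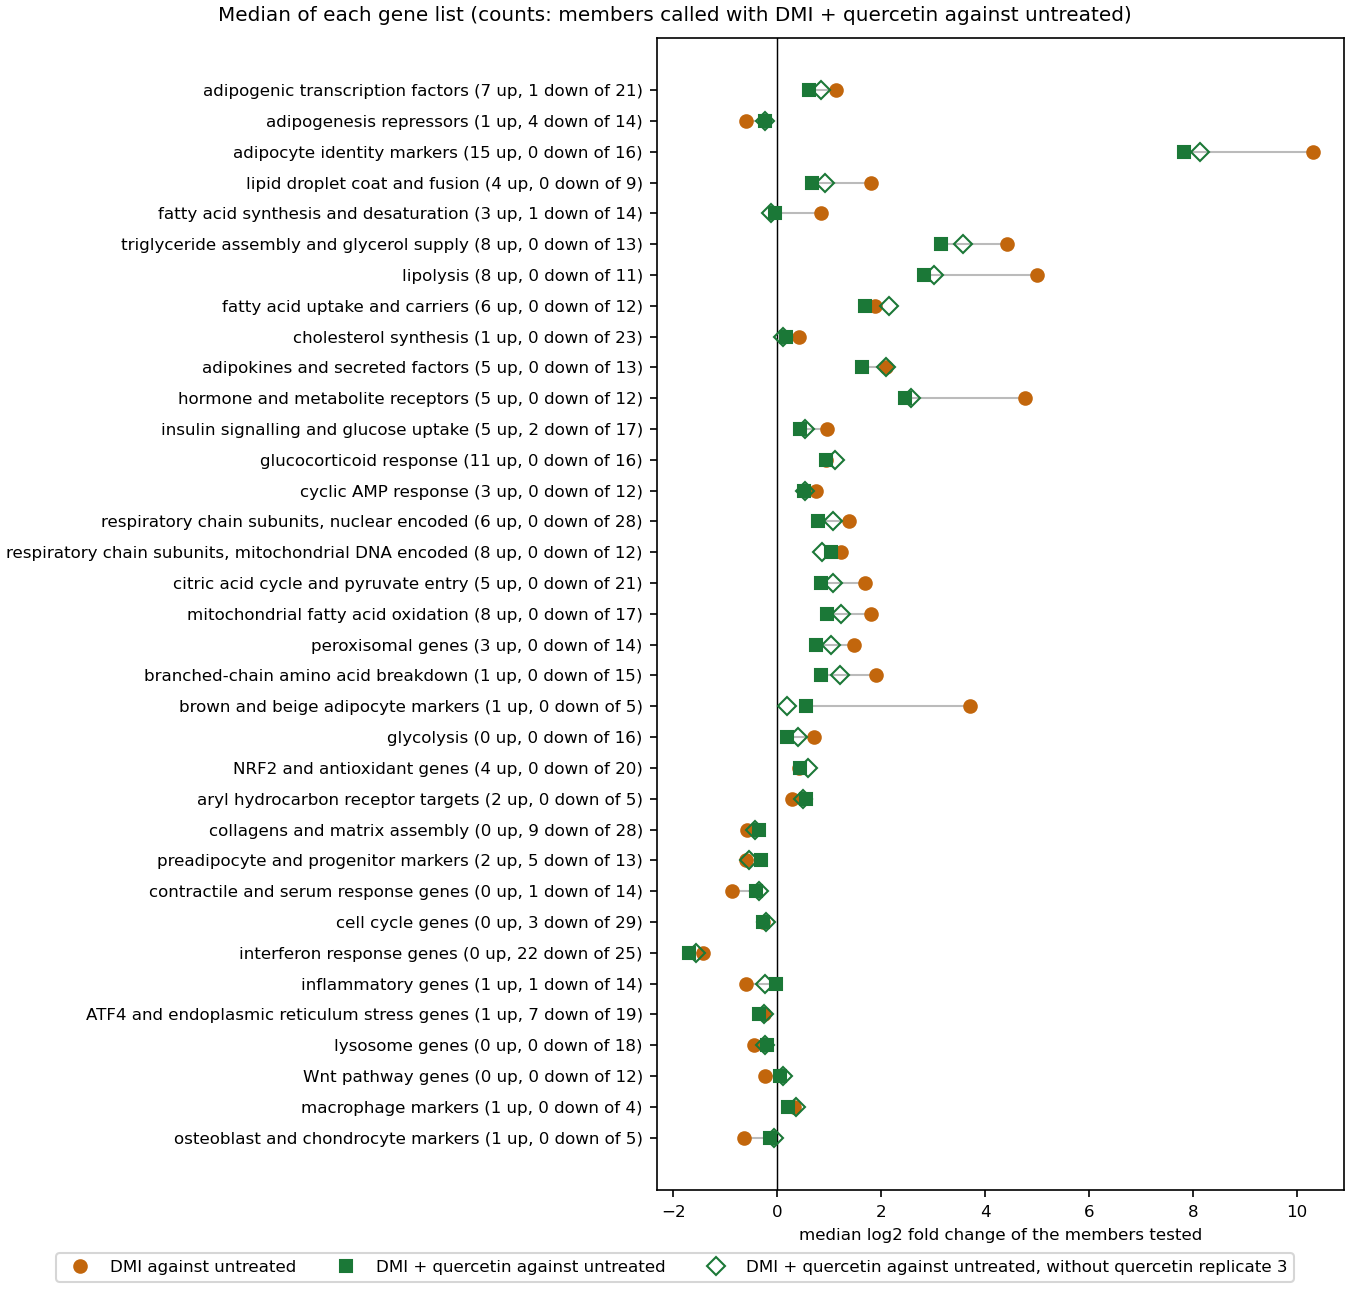
Median log2 fold change (x axis) of the tested members of each gene list with at least 4 of them (rows), for DMI alone against untreated, DMI with quercetin against untreated, and the latter without the third quercetin library. Identity markers have the highest medians (10.3 with DMI, 7.82 with quercetin) and interferon response genes the lowest (-1.44 and -1.71).

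NRF2, a regulator of antioxidant genes, and the aryl hydrocarbon receptor are often linked to flavonoids. Of 20 tested NRF2 and antioxidant genes 4 rose (9 rises and 1 fall with DMI alone), and 10 rose and 1 fell without quercetin library 3. Over all genes 4.79% rose with quercetin and 14.7% with DMI alone, and 21.6% were called either way without quercetin library 3. Nqo1, a quinone reductase under NRF2 and aryl hydrocarbon receptor control, was at 12.31, 10.32 and 12.51 CPM untreated, 21.67, 22.95 and 20 CPM with quercetin and 14.09, 14.87 and 13.73 CPM with DMI. Its quercetin libraries lay above all others in both groups, and it rose over untreated (0.88, SE 0.16, adjusted p = 0.00591), while the difference from DMI did not pass (0.60, adjusted p = 0.0803). Of 5 tested aryl hydrocarbon receptor targets Nqo1 and Aldh3a1 rose. Aldh3a1, an aldehyde dehydrogenase, was at 0.684, 0.835 and 0.302 CPM and at 2.73, 2.28 and 1.23 CPM (1.77, adjusted p = 0.0181), and Cyp1b1, a classical target, stood at 0.20 (adjusted p = 0.520). Of 16 glycolysis genes none passed over untreated by edgeR or limma-voom with all libraries, and 3 rose by edgeR without quercetin library 3. At an unadjusted p under 0.05, 3 were higher and 2 lower, and 3 were higher by DESeq2. With DMI alone 10 rose and 1 fell.

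Genes past the threshold in both comparisons of the quercetin libraries were 11 higher than untreated and higher than DMI, 15 lower than both, and 41 higher than untreated and lower than DMI. The last are placed in between by both tests, among them Slc36a2, Car3, Klb, Hcar1 and Il2ra. Since both comparisons hold the same quercetin libraries, the counts are a description. Clca3a1, a secreted protein of the chloride channel regulator family, was at 61.42, 60.96 and 54.02 CPM untreated, 187.4, 176.4 and 169.2 CPM with quercetin and 104.9, 91.94 and 112 CPM with DMI (1.60 over untreated, adjusted p = 7.28e-05; 0.79 over DMI, adjusted p = 0.0246), and it also rose with DMI alone (0.81, adjusted p = 0.000574). The 3 groups did not overlap. Kitl, the ligand of the receptor KIT, was at 59.06, 60.31 and 63.63 CPM untreated, 84.7, 92.35 and 146.5 CPM with quercetin and 60.65, 58.44 and 62.43 CPM with DMI. It rose over untreated (0.82, adjusted p = 0.0126) and lay above DMI (0.83, adjusted p = 0.0484), its highest value being in the third quercetin library. Prl2c2, a proliferin with close copies, and Rnase4, a secreted ribonuclease, also passed in both comparisons.

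On the lower side, Plagl1, an imprinted zinc finger gene, was at 53.71, 55.24 and 47.25 CPM untreated, 11.9, 11.83 and 20.43 CPM with quercetin and 42.91, 34.67 and 26.9 CPM with DMI. It was 3.54-fold lower than untreated (-1.82, SE 0.22, adjusted p = 0.000654) and 2.37-fold lower than DMI (-1.25, adjusted p = 0.0420). Cpz, a secreted carboxypeptidase that binds Wnt proteins, was at 9.95, 10.5 and 7.67 CPM, 1.42, 2.33 and 0.675 CPM, and 7.11, 9.39 and 6.28 CPM in the same order (-2.64 from untreated, adjusted p = 0.000794; -2.34 from DMI, adjusted p = 0.0246). Nid2, a basement membrane protein, was at 292.5, 291 and 245.4 CPM untreated, 168.4, 139.8 and 125.5 CPM with quercetin and 312.4, 303.3 and 285.3 CPM with DMI. DMI alone did not differ from untreated at the threshold (0.12, adjusted p = 0.529), and quercetin lay 1.06 below DMI on the log2 scale (adjusted p = 0.0246). In each of these 3 genes the quercetin libraries lay below every untreated and every DMI library.

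By the authors' FPKM, which divide by gene length, the mean level with quercetin was 1048 for Col1a1, 448.6 for Dlk1, 340.4 for Scd1, 330.0 for Adipoq, 304.2 for Cfd, 196.6 for Fabp4 and 180.3 for Cidec. With DMI alone the same means were 1209, 379.9, 2146, 943.0, 985.0, 571.5 and 1121 FPKM.

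Markers of other cell types were measured as well. Of the listed ones 4 of 8 for macrophages, 3 of 7 for endothelium, 0 of 6 for epithelium, 5 of 10 for bone and cartilage and 3 of 10 for muscle passed the low-count filter. The macrophage marker Adgre1, the endothelial Erg, the epithelial Epcam and Cldn4 and the muscle factors Myod1 and Myog had no count in the 9 libraries. Summed over the listed genes, macrophage markers held 9.73 to 11.0 CPM untreated and 12.5 to 16.4 CPM with quercetin, endothelial markers 3.63 to 4.85 and 0.982 to 2.76 CPM, epithelial markers 0.311 to 0.483 and 0.123 to 0.873 CPM, and muscle markers 6.34 to 8.10 and 5.46 to 12.5 CPM. Bone and cartilage markers summed to 412.9 to 495.1 CPM untreated and 271.0 to 513.4 CPM with quercetin. Of the tested ones Cd14, Alpl and Des rose and Emcn fell; their part in other results was not tested. Of 5 tested brown and beige markers 1 rose, Cox8b, a subunit of cytochrome oxidase (0.0622, 0 and 0.483 CPM to 4.20, 3.84 and 1.23 CPM; 4.04, adjusted p = 0.00806).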

How the data were processed

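RNA-seq libraries of 3T3-L1 cells were made from total RNA with a NEBNext Ultra kit, per the labels' protocols, and nothing names the strand setting used in counting. The authors deposited 1 table of raw read counts per gene for all 12 libraries, made with featureCounts 1.5.0-p3 after CASAVA 1.8.2, per the submitters' processing notes. No source used here names the aligner. The build named there is mm9, but 98.3% of the gene coordinates equal GENCODE M21 on GRCm38, which is the build printed. The same table holds FPKM values made by the authors per kilobase and library, the authors' log2 fold changes, p-values and adjusted p-values, and a mean normalized signal per group, tool not stated. The authors' deposited table has 1836 genes past 0.05 for quercetin with DMI against untreated, and 1234 of them are among the 1404 called here.

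Counts were filtered with filterByExpr (14855 of 54532 genes kept), scaled by TMM and fitted with edgeR 4.0.16 (quasi-likelihood test, Benjamini-Hochberg over all genes tested, threshold 0.05, R 4.3.3) with 1 term per group over all 12 libraries, so the groups share one estimate of spread. Unless another tool is named, every adjusted p and every call is from this fit. Standard errors are the log2 fold change over the root of F, and intervals are at 95%. A group at 0 counts was set to a floor of 3 counts over the group, and such bounds cover counting error only. Libraries of a group all differed by more than counting noise, with a chi-square of 2.78 per gene or higher. The procedure was tested on simulated counts, drawn independently for each library at the estimated spread of each gene. They held no shift of a library with length or GC content, so that test does not bear on the third libraries. The 21 panel genes, 38 gene lists and the comparison itself were chosen with earlier results of these data known. Named genes are the panel, the 10 largest rises and falls among protein-coding genes at 5 CPM or more without overlap, up to 6 genes per pattern over both comparisons and up to 4 members per list; others named were chosen after their values were seen. A few genes that the rule names are not reported here. Alternatives were DESeq2 1.42.0, limma-voom 3.58.1, other scalings and filters, a replicate block, the 6 libraries alone, leaving out libraries, and offsets for length and GC content. Promoter sequences are from RefSeq (GRCm38.p6).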

Additional observations from a re-analysis of the deposited data

How the results depend on the processing

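No called value changed direction in the alternatives run. Against untreated, the 1404 calls became 2174 with DESeq2, 2357 with no low-count filter, 2115 with the replicate block, 2801 with the block and length and GC offsets together, 3014 with the offsets and no quercetin library 3, 2484 without DMI and luteolin libraries 3, and 6108 without library 3 of all 3 induced groups, a choice that narrows the spread by construction. The replicate numbers showed no pairing of quercetin and untreated libraries (correlations of same-numbered deviations 0.0915, -0.0156 and -0.000582). Between quercetin and DMI the same correlations were 0.0738, 0.47 and 0.386. There quercetin libraries 2 and 3 correlated best with their own number, while quercetin library 1 correlated better with DMI library 2, at 0.433. These values do not settle whether the induced groups are paired, and the block is given here only. The 712 rises became 1264 (DESeq2), 467 (limma-voom), 1565 (no filter), 1090 (block), 1293 (block and offsets), 1330 (offsets, no quercetin library 3), 1336 (no DMI and luteolin libraries 3) and 3624 (no library 3 in any). The 692 falls became 1508 (block and offsets), 1684 (offsets, no quercetin library 3), 1148 (no DMI and luteolin libraries 3) and 2484 (no library 3 in any). Leaving out 1 library at a time gave 458 to 3286 calls, 222 to 2120 rises and 236 to 1166 falls. Against DMI the 150 calls became 55 (at least 1 CPM in 3 libraries), 984 (DESeq2), 1 (limma-voom), 59 (library totals only), 1737 (no filter), 0 (only the 6 libraries), 706 (block in only those), 1395 (block), 254 (offsets), 2385 (block and offsets), 4 (offsets, no quercetin library 3), 2902 (no DMI and luteolin libraries 3) and 5049 (no library 3 in any), and 0 to 2646 leaving out 1 library. The 4024 calls of DMI against untreated became 6157 (block and offsets), 6443 (offsets, no quercetin library 3) and 7970 (no library 3 in any), and 1865 to 5569 leaving out 1 library. The cause of these shifts was not tested beyond the number of genes or libraries each alternative removes.

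For the lists, counts of members against untreated are given in order as the value with all libraries, the values that moved, and the range leaving out 1 library. Transcription factors: 7 rose, 11 with block and offsets or with no filter, 12 with offsets and no quercetin library 3, 4 with limma-voom, 15 with no library 3 in any, range 3 to 13. Identity markers: 15, 9 with limma-voom, range 11 to 15. Triglyceride assembly: 8, 13 with no library 3 in any, range 8 to 10. Lipolysis: 8, 4 with limma-voom, range 4 to 8. Uptake: 6, range 4 to 8. Adipokines: 5, 8 with no filter or no DMI and luteolin libraries 3, 9 with no library 3 in any, range 4 to 7. Receptors: 5, 2 with limma-voom, 8 with no library 3 in any, range 3 to 6. Insulin signalling: 5, 8 with DESeq2 or with offsets and no quercetin library 3, 0 with limma-voom, 12 with no library 3 in any, range 1 to 7. Glucocorticoid response: 11, range 4 to 12. Nuclear-encoded respiratory chain: 6, 14 (DESeq2), 25 (no filter), 12 (only the 6 libraries), 15 (block), 2 (offsets), 17 (offsets with the block or with no quercetin library 3), 21 (no DMI and luteolin libraries 3), 28 (no library 3 in any), range 0 to 25. Mitochondrial DNA subunits: 8, 3 (offsets), 2 (offsets, no quercetin library 3), range 1 to 9. Citric acid cycle: 5, 11 (DESeq2), 18 (no filter), 12 (only the 6 libraries), 10 (block in only those), 14 (block or offsets and no quercetin library 3), 16 (block and offsets, or no DMI and luteolin libraries 3), 20 (no library 3 in any), range 1 to 16. Fatty acid oxidation: 8, 13 (DESeq2, block, or no DMI and luteolin libraries 3), 4 (limma-voom), 15 (no filter), 16 (no library 3 in any), range 0 to 15. Of the falls, collagens had 9, 15 with block and offsets, 16 with no library 3 in any, range 3 to 11, progenitor markers 5, 8 with no library 3 in any, range 1 to 5, interferon genes 22, range 12 to 24, and ATF4 genes 7, range 4 to 9. Of the panel, Adipoq, Cd36, Cebpa, Cidec, Dgat2, Fabp4, Lipe, Lpl, Pck1, Plin1, Pnpla2 and Scd1 passed in all 26 alternatives and Fasn in none, while Cebpd and Dlk1 missed the threshold in 5, Nr1h3 in 4, Pparg in 3 and Slc2a4 in 1, and Srebf1 passed in 7 and Cebpb in 3. Depth limits genes at a few counts, Lep among them.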

Other observations

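Some genes outside the named pathways were also called against untreated. Of 14 tested inflammatory genes Nfkbia, an inhibitor of NF-kB, rose from 24.49, 20.94 and 22.84 CPM to 37.71, 41.75 and 35.04 CPM (log2 fold change 0.75, adjusted p = 0.00366 by edgeR). The chemokine gene Ccl5, itself often induced with interferon genes, fell from 5.28, 6.50 and 5.80 CPM to 1.31, 1.62 and 0.92 CPM (-2.18, adjusted p = 0.000794). Of 14 tested peroxisomal genes 3 rose (8 without quercetin library 3), among them Pex11a, which helps peroxisomes divide, from 8.52, 9.84 and 8.34 CPM to 39.79, 37.71 and 16.26 CPM (1.81, adjusted p = 0.0228). Of 15 genes of branched-chain amino acid breakdown 1 rose, Hibch (10 without quercetin library 3), against 15 with DMI alone. Of 23 tested cholesterol synthesis genes 1 rose, Hsd17b7 (0.77, adjusted p = 0.0376 by edgeR), against 8 with DMI alone. Without quercetin library 3, 3 of those 23 rose and 1 fell. Of 14 tested contractile and serum response genes 1 fell, Tpm2 (-0.79, adjusted p = 0.0255 by edgeR), against 9 with DMI alone. No member of that list passed without quercetin library 3. Over all genes 4.79% rose and 4.66% fell with quercetin, so 1 call in a list of this size is near that share. With DMI alone 14.7% rose and 12.4% fell. Of 18 lysosome and 12 tested Wnt pathway genes none passed by edgeR or limma-voom with all libraries. At an unadjusted p under 0.05, 5 and 3 were lower, and 1 lysosome gene passed by DESeq2, lower. Without quercetin library 3, 2 lysosome genes rose and 1 fell, and 1 Wnt pathway gene fell.

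The matrix protein gene Mfap4 was among the 10 largest falls, from 501.8, 514.5 and 508.7 CPM to 60.47, 87.86 and 81.06 CPM (-2.73), with 57.07, 53.16 and 236 CPM under DMI, where the third library was the highest. The other large falls by the naming rule were Lgi2 (-2.97), the mechanosensitive channel gene Piezo2 (-2.78) and Phf11b (-2.76), a gene with close copies.

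By annotated gene class, 10.4% of 12384 protein-coding genes passed against untreated, 8.29% of 410 lincRNAs (17 higher and 17 lower) and 3.71% of 431 antisense genes, which cannot be told apart from their partners without strand. Among the lincRNAs, H19, an imprinted transcript (chr7:142575529-142578143, minus strand, GRCm38), went from 36.12, 40.98 and 38.49 CPM to 14.68, 13.55 and 7.43 CPM (-1.69, adjusted p = 0.000914), with 15.79, 19.46 and 21.24 CPM under DMI. Gm42595 went from 1.99, 4.18 and 2.42 CPM to 10.64, 12.89 and 7.85 CPM (1.87, adjusted p = 0.0014). In both genes the quercetin and untreated libraries did not overlap.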
